A study of Ovis aries with 36 samples.

Results

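Psoas major (PM), a muscle of the loin, was compared with Supraspinatus (SS), a muscle of the shoulder blade, in the same 4 lambs. The comparison uses 8 of the 36 RNA-Seq samples of the series, PM1 to PM4 and SS1 to SS4, paired by the animal number in the sample labels. The other 28 samples come from 7 further muscles of these animals: Adductor (AD), Longissimus lumborum (LL), Rectus femoris (RF), Gluteus medius (GM), Semimembranosus (SM), Gluteobiceps (GB) and Semitendinosus (ST). All lambs were unrelated Poll Dorset crosses, slaughtered at 14 months of age with no experimental treatment, and each sample is a piece of the superficial belly of 1 muscle of 1 animal. Each of the 4 animals is therefore a biological replicate. The question is how far this pair of muscles, chosen here as slower ones, differ from each other.

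Skeletal muscle is a mixture of fiber types. Slow fibers contract with the slow myosin heavy chain and its light chains MYL2 and MYL3, carry the slow troponins TNNT1, TNNC1 and TNNI1, refill their calcium store with the pump ATP2A2, and rely on oxidative metabolism. Fast fibers use other isoforms of these proteins, and the fastest ones can buffer calcium with parvalbumin (PVALB). Muscles also keep a record of where in the body they arose, since HOX genes, transcription factors arranged in clusters along the chromosomes, are expressed in domains along the body axis and the limbs.

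The study's RT-qPCR primers for 3 genes are shown here whole, 5′ to 3′ and in lower case. The study used RT-qPCR to compare SS with ST and describes none for PM, so the PM values below rest on RNA-Seq alone.
MYL3 first primer: tctccaagaacaaggacaccg
MYL3 second primer: atcttctgtcagcctctcacc
MYL6 first primer: gccaaaacagactccacctc
MYL6 second primer: caaagtcatgggagctgagc
METTL21C first primer: tcggagattgagttcctctgt
METTL21C second primer: ccagctacactcaggagaact

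The 8 libraries held 4118178 to 6209124 counts. The 4 most counted loci, short stretches without an Ensembl gene, took 67.2% to 73.5% of each library, which left 1214226 to 1905065 counts for all other loci. Values are counts scaled to library size with TMM factors, written as CPM, and 3 counts, taken as the floor, are 0.428 to 0.686 CPM. CPM is not divided by length, so a level is compared only for the same locus across samples. The files give Ensembl identifiers and no symbols. A name was used where the coordinates that the study prints for a gene on Oar_v3.1 held exactly 1 tested locus with an Ensembl gene, which gave 30 names. At the coordinates of 7 further genes lay several tested loci, and these are described by position.

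Of 12461 loci tested, 113 were differentially expressed (DEG, with a log2FC beyond 1 or −1 at an FDR no higher than 0.01), a share of 0.907%. Of these, 65 were higher in PM (0.522% of the loci tested) and 48 were higher in SS (0.385%). For 112 DEG all 4 animals moved the same way, and for the remaining DEG 3 of 4 did. The PM and SS samples did not overlap for 99 of the 113 DEG, against 7.79% of all loci tested. The counts of direction and of overlap describe DEG chosen on these same samples and are not separate support. Among the DEG higher in PM, 32 of 65 were past a log2FC of 2, and 19 of these 32 lay in 2 runs of neighboring loci described below. Outside those runs it was 13 of 45, beside 11 of 48 DEG higher in SS with a log2FC below −2. No Ensembl gene was assigned to 25 of the 65 and 11 of the 48 (38.5% and 22.9%), against 25.4% of all loci tested. The count depended on single animals: 32 loci were called without animal 3 and 49 without animal 4, all among the 113. Without animal 2 there were 71, 63 of them among the 113, and without animal 1 there were 120, with 84 among the 113.

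**Figure D1:**
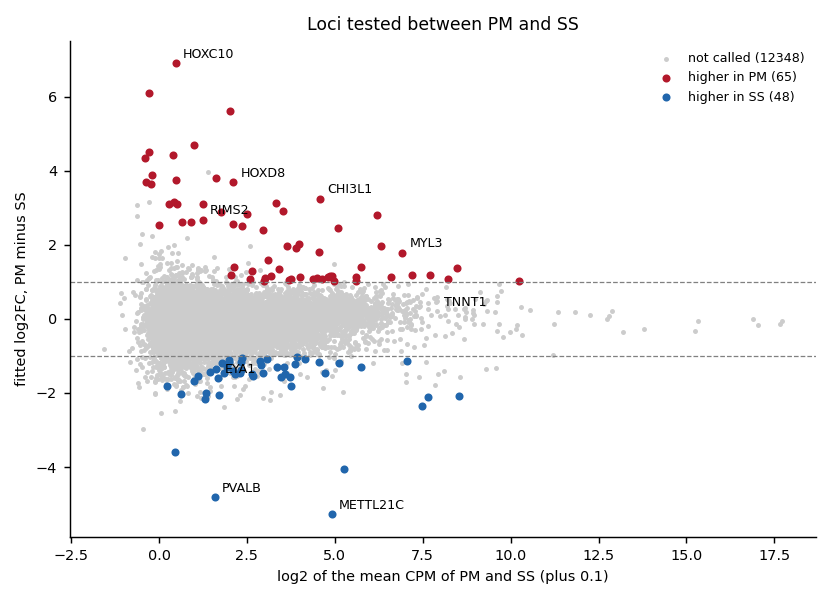
Fitted log2FC of PM minus SS (y axis) against the log2 of the mean CPM of both muscles plus 0.1 (x axis) for the 12461 loci tested. Red points are the 65 loci higher in PM, blue points the 48 higher in SS, grey points the loci not called, and dashed lines mark a log2FC of 1 and −1. METTL21C and PVALB lie lowest, TNNT1 lies near 0, and the value of HOXC10 at the top is set against 0 counts in SS.

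Slow fiber genes were examined first, since the pair was chosen here as slower muscles. The study itself describes SS as slow, and it places PM among muscles in intermediate positions. Of the 8 slow fiber genes paired with a name, 1 was called and their median log2FC was 0.18, beside −0.02 over all loci tested. The slow troponin T gene TNNT1 reached 244, 271, 274 and 231 CPM in PM1 to PM4 and 172, 183, 261 and 281 CPM in SS1 to SS4. The samples overlapped and the log2FC was 0.21 (95% interval −0.38 to 0.81, FDR = 0.774). The slow troponin C gene TNNC1 averaged 328 ± 83.8 CPM in PM and 272 ± 67.0 CPM in SS (mean ± SD, n = 4 each, as below), with a log2FC of 0.26 (−0.34 to 0.86). The slow troponin I gene TNNI1 averaged 64.2 ± 9.00 and 59.8 ± 18.5 CPM, and its log2FC was 0.15 (−0.50 to 0.80). None of the 3 troponin differences passed the test, and the intervals leave room for a difference of up to 0.86 on the log2 scale.

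ATP2A2, the calcium pump of slow fibers, averaged 421 ± 85.6 CPM in PM and 404 ± 65.1 CPM in SS. Its log2FC was 0.06 (−0.44 to 0.55, FDR = 0.938). CASQ2, which binds calcium inside the store, averaged 7.09 ± 1.88 and 10.02 ± 3.84 CPM, and MYOM3, a protein of the M band, 31.7 ± 19.3 and 42.2 ± 15.4 CPM. Both had overlapping samples and were not called, with log2FC of −0.53 (−1.03 to −0.03) for CASQ2 and −0.43 (−1.06 to 0.21) for MYOM3. TPM3, the slow tropomyosin gene, had a value of 217 ± 46.9 CPM in PM and 140 ± 44.5 CPM in SS, with more in PM in 4 of 4 animals and a log2FC of 0.67 (0.18 to 1.15, FDR = 0.120). MYOZ2, the slow fiber protein that ties calcineurin to the Z disc, had a value of 33.3 ± 18.3 CPM in PM and 53.9 ± 14.1 CPM in SS, with more in SS in 4 of 4 animals and a log2FC of −0.75 (−1.23 to −0.27, FDR = 0.0698). Neither passed the FDR threshold, although both intervals exclude 0. At the coordinates shared by MYL2 and CCDC63 lay a pair of loci, with log2FC of −0.17 and −0.33 and FDR of 0.848 and 0.559. Of the 2 loci at the coordinates of MYH7B, 1 had 44.9 ± 25.8 CPM in PM and 73.9 ± 10.8 CPM in SS (log2FC −0.82, −1.59 to −0.05, FDR = 0.261), and the other was not called either (log2FC −0.13, FDR = 0.752). In ST the former had 3.61 ± 1.14 CPM and the latter 12.6 ± 0.799 CPM, where SS had 12.6 ± 3.03 CPM. The study lists MYH7B as higher in SS than in ST, a difference that only the former locus shows. The locus at the coordinates of PDLIM1, of the same list, had 2.06 ± 0.28 and 2.75 ± 0.32 CPM and was not called. At this locus ST had 2.53 ± 1.53 CPM, near SS. The study lists PDLIM1 among its most significant genes higher in SS than in ST, a difference not seen at this locus. The locus is therefore not taken as a reading of the PDLIM1 that the study measured, although the counts of slow fiber loci here include it.

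The choice of PM and SS as a slower pair was set beside the order of the 9 muscles. For 9 of the 16 loci at slow fiber, ATP2A2, CASQ2 and FABP3 coordinates, PM and SS were the 2 highest muscles, and for 12 of 16 both were among the highest 3, whereas this pair led for 2.30% of all loci tested. TNNT1 ran from 255 ± 20.8 CPM in PM and 224 ± 54.5 CPM in SS over 178 ± 35.1 CPM in GB to 23.1 ± 6.93 CPM in ST, the lowest muscle. The steps from PM to SS and from SS to GB were each smaller than the SD of SS. These ranks are a description, since the slow fiber genes with a name are genes that the study drew from these same samples.

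**Figure D2:**
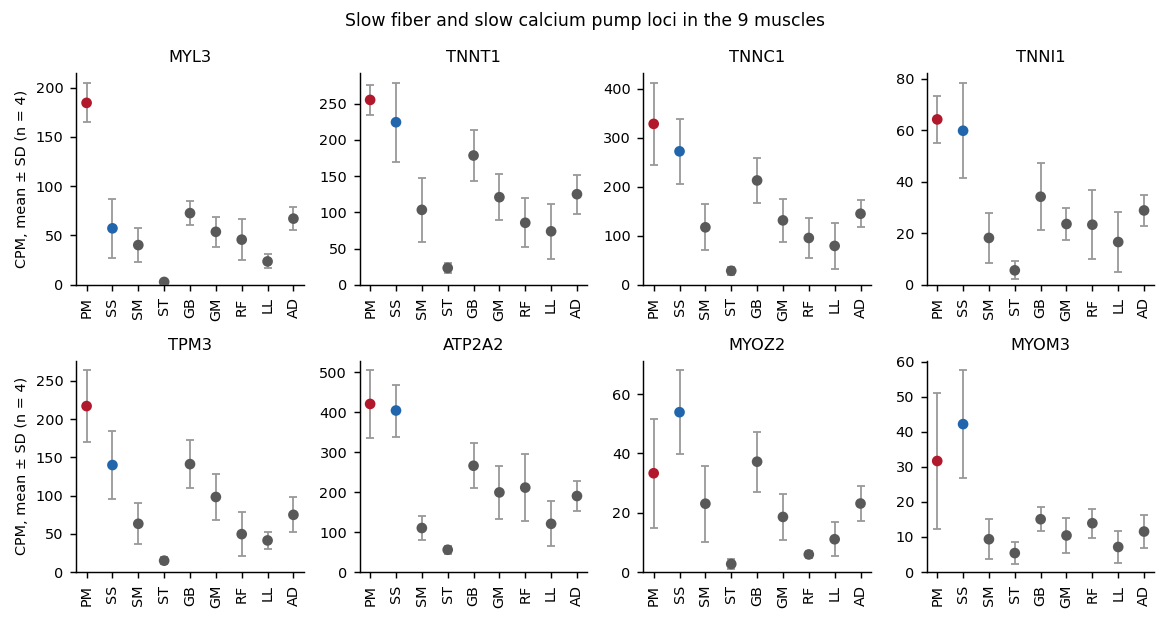
Mean CPM with SD (n = 4 animals) of 8 loci in the 9 muscles, PM in red, SS in blue and the other 7 in grey. PM and SS lie together at the top for TNNT1, TNNC1, TNNI1 and ATP2A2, whereas MYL3 is high in PM alone, with SS at 57.3 CPM among the other muscles.

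MYL3, the essential light chain of slow and ventricular myosin, was the 1 called gene of the slow fiber list. It reached 182, 192, 206 and 158 CPM in PM1 to PM4 and 38.0, 27.6, 72.3 and 91.3 CPM in SS1 to SS4. All PM samples lay above all SS samples, and the gap was widest in animals 1 and 2. The log2FC was 1.78 (95% interval 1.18 to 2.38, SE of the 4 within-animal differences 0.44, FDR = 0.000275), and the call held in the 4 fits that left out 1 animal each. The locus spans chr19:52560400-52569198. Among the 9 muscles PM was highest for MYL3 and SS had rank 5, after GB (72.7 ± 12.1 CPM), AD (67.1 ± 11.8 CPM) and GM (53.7 ± 15.3 CPM), where ranks follow mean log2 values. The level of SS was therefore within the range of muscles with less TNNT1, TNNC1 and TNNI1.

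The HOX genes with a name were nearly silent in SS and present in PM. HOXC10 (chr3:132378062-132383225) had 0 counts in each of the 4 SS samples and 1.78, 3.26, 3.095 and 2.14 CPM in PM1 to PM4, 59 counts in all. PM was at least 19.1-fold higher when the 4 SS libraries are set at a floor of 3 counts together (FDR = 2.71e-07). HOXD8 (chr2:132873609-132877353) had 4.24, 7.77, 11.3 and 7.99 CPM in PM and 0.229, 0.290, 0.354 and 1.54 CPM in SS. Its log2FC was 3.69 (2.91 to 4.47, SE 0.42, FDR = 9.54e-08). Both calls held whichever animal was left out.

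In the other 7 muscles, HOXC10 lay between 2.09 ± 0.313 CPM in GM and 3.50 ± 0.668 CPM in ST, so SS was the 1 muscle of 9 without a count. HOXD8 lay between 7.39 and 14.0 CPM in 6 of these muscles and was low in RF (1.42 ± 1.07 CPM), which stood next to SS at the bottom. PM had rank 6 of 9 for both genes, within the range of the other 7 muscles, whereas SS lay below that range.

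The neighbors of both HOX genes were examined within 100 kb. Near HOXD8, 5 of 14 loci had enough counts to be tested and 2 were called, both higher in PM. The second, an Ensembl gene at chr2:132882816-132884329, had 31 counts in PM and 2 in SS, a ratio of 15.0 with a counting interval of 3.83 to 130. Near HOXC10, 2 of 18 loci could be tested and HOXC10 itself was called. The 16 loci below the filter near HOXC10 held 54 counts in PM and 14 in SS together. The 9 below it near HOXD8 held 26 and 15. Both sums are too few for a test of each locus. The uncalled loci tested near HOXD8 had log2FC of 0.86, 0.86 and 1.04 (FDR of 0.336, 0.374 and 0.103). The other locus tested near HOXC10 averaged 5.37 ± 4.08 CPM in PM and 5.44 ± 3.25 CPM in SS. Whether PM and SS differ over the whole of either cluster was not tested.

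METTL21C had one of the largest differences in the opposite direction. It encodes a lysine methyltransferase of muscle. SS1 to SS4 had 15.6, 41.8, 87.5 and 88.2 CPM, and PM1 to PM4 had 3.12, 0.777, 3.30 and 0.857 CPM. The groups did not overlap although the SS samples spread more than 5-fold, and the log2FC was −5.27 (95% interval −6.49 to −4.05, SE 0.85, FDR = 3.78e-07). SS was the highest of 9 muscles, with 58.3 ± 35.8 CPM, and the next was LL with 7.03 ± 7.86 CPM, whereas PM had rank 8. The locus lies at chr10:78272110-78285629, and the call held in all 4 fits without 1 animal.

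A pair of loci share the coordinates of MYL6, the non-muscle and smooth muscle myosin light chain (chr3:163076924-163101778), and they behaved differently. The locus of ENSOARG00000010069 had 62.0, 57.0, 100 and 68.4 CPM in SS and 4.91, 4.82, 5.16 and 2.71 CPM in PM. Its log2FC of −4.05 (−4.73 to −3.37, SE 0.24) had the smallest FDR of the comparison, 4.20e-10. PM was the lowest and SS the highest of the 9 muscles, with SM next at 19.7 ± 15.2 CPM. The other locus averaged 30.0 ± 3.17 CPM in PM and 26.8 ± 2.92 CPM in SS (log2FC 0.16, FDR = 0.590). In ST the locus of ENSOARG00000010069 had 4.93 ± 0.874 CPM, below SS, and the other locus 35.2 ± 3.19 CPM, above SS. The study reports MYL6 as higher in SS than in ST by RNA-Seq and by RT-qPCR, the direction of the ENSOARG00000010069 locus alone. The strand setting of the counting is not given in the sources used here, so reads of overlapping genes cannot be told apart. Which of both loci the MYL6 primers measure was not tested.

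PVALB, the parvalbumin of fast fibers, was higher in SS. SS1 had 17.4 CPM and SS2 to SS4 had 2.18, 1.24 and 1.73 CPM, against 0.223, 0.311, 0 and 0 CPM in PM1 to PM4. In counts, SS had 107 and PM had 3, a ratio of 36.7 with a counting interval of 12.2 to 181. The SS total rests largely on animal 1. Without that animal the fitted log2FC was −3.74 and the FDR 0.0103, just past the threshold. RF (7.29 ± 5.39 CPM) and ST (5.68 ± 2.58 CPM) were the highest muscles for PVALB, SS followed at 5.63 ± 7.84 CPM, and AD had no count.

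EYA1 and DLG2 were also higher in SS. EYA1 is a transcriptional coactivator that favors fast fiber genes. It had 3.89, 4.93, 3.72 and 5.97 CPM in SS and 1.56, 1.399, 0.825 and 2.28 CPM in PM. The fitted log2FC of EYA1 was −1.60 (95% interval −2.29 to −0.92, SE 0.15, FDR = 0.00431). SS was the highest of the 9 muscles for EYA1 and RF came next (4.51 ± 0.812 CPM). DLG2, a scaffold protein of synapses, had 3.89, 5.08, 9.74 and 9.63 CPM in SS and 2.48 to 2.86 CPM in PM. The fitted log2FC of DLG2 was −1.38 (−1.97 to −0.78, SE 0.33, FDR = 0.00460).

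The SS and PM samples of both genes did not overlap, yet the calls depended on which animals were included. EYA1 and DLG2 lost the call without animal 2, 3 or 4, with an FDR of up to 0.0732 and 0.155. Without the block for animal the FDR was 0.0755 for EYA1 and 0.0253 for DLG2. KCNMA1, a calcium-activated potassium channel, passed neither threshold, although its groups did not overlap: its 4 SS samples lay between 20.99 and 22.3 CPM and its PM samples between 12.6 and 16.5 CPM (log2FC −0.60, FDR = 0.0153). Among the calcium handling genes described here, PVALB was called higher in SS, whereas ATP2A2, CASQ2 and KCNMA1 were not called.

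Near RORA, a nuclear receptor of metabolism, the study described transcripts without an annotation. The locus at chr7:46246545-46258218 had 18.5, 20.2, 18.4 and 23.7 CPM in SS and 7.58, 15.5, 7.84 and 8.99 CPM in PM. Its fitted log2FC was −1.04 (95% interval −1.42 to −0.65, SE 0.23, FDR = 0.000854). The call ended without animal 1, 3 or 4, when the log2FC was as close to 0 as −0.90, and without the block (FDR = 0.0391). Its neighbors at chr7:46275748-46290277 and chr7:46258368-46267107 had log2FC of −0.70 each with FDR of 0.0219 and 0.0295, past neither threshold.

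Among the remaining named genes higher in PM, CHI3L1 had the largest contrast. It encodes a secreted glycoprotein related to the chitinases, and its locus (chr12:344371-366834) joins 2 Ensembl genes. PM had 57.1, 23.2, 50.8 and 40.0 CPM and SS 10.1, 2.18, 3.19 and 3.47 CPM, with no overlap (log2FC 3.24, 2.53 to 3.96, SE 0.29, FDR = 1.77e-07). SS was the lowest of the 9 muscles for CHI3L1, and LL was the highest (72.9 ± 8.67 CPM). RIMS2, which docks vesicles at nerve terminals, had 3.79, 3.57, 4.95 and 3.43 CPM in PM and 0.686, 0.580, 0.354 and 0.770 CPM in SS. The fitted log2FC of RIMS2 was 2.67 (1.74 to 3.61, SE 0.25, FDR = 0.000454). Without animal 3 the FDR of RIMS2 was 0.0199.

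PPP1R3D was also higher in PM. This subunit that directs protein phosphatase 1 to glycogen had 8.70, 6.37, 4.54 and 5.28 CPM in PM and 2.97, 1.45, 2.66 and 2.31 CPM in SS. PPP1R3D had a fitted log2FC of 1.41 (95% interval 0.89 to 1.92, SE 0.26, FDR = 0.000849). Its FDR was 0.0150 without animal 2 and 0.0143 without animal 4. A pair of loci lay at the coordinates of SLC16A3, the lactate exporter of glycolytic fibers. Of these, 1 had 17.4, 13.7, 10.5 and 9.42 CPM in PM and 4.35, 4.79, 4.43 and 3.08 CPM in SS. For this locus the fitted log2FC was 1.58 (1.06 to 2.10, SE 0.15, FDR = 0.000195). The other locus there had 10.3 ± 1.19 and 9.56 ± 1.06 CPM (FDR = 0.794). In SM the called locus had 13.9 ± 6.59 CPM and the other 10.1 ± 1.70 CPM. The study lists SLC16A3 as higher in SM than in SS, a difference seen at the called locus and not at the other. With the strand setting unknown, reads of overlapping genes cannot be told apart there. SS was the lowest of the 9 muscles for PPP1R3D and for both SLC16A3 loci.

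SMYD2 and TMEM2 passed the FDR and not the fold threshold. SMYD2, a lysine methyltransferase of sarcomere and other proteins, had 21.9 ± 3.65 CPM in PM and 12.04 ± 1.69 CPM in SS (log2FC 0.87, FDR = 0.00190). TMEM2, a membrane protein that degrades hyaluronan, had 17.5 ± 2.65 and 10.3 ± 3.16 CPM (log2FC 0.80, FDR = 0.00156). In both cases PM was above SS in 4 of 4 animals. Of the 30 loci with a name, 6 were called higher in PM and 5 higher in SS, far above the 0.907% of all loci, but the study had chosen these names from comparisons of the same samples, many of them with SS, so that share is not independent evidence. The 10 named or study-described loci not detailed here had log2FC between −1.31 and 0.26 and none was called, with a smallest FDR of 0.0103.

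**Figure D3:**
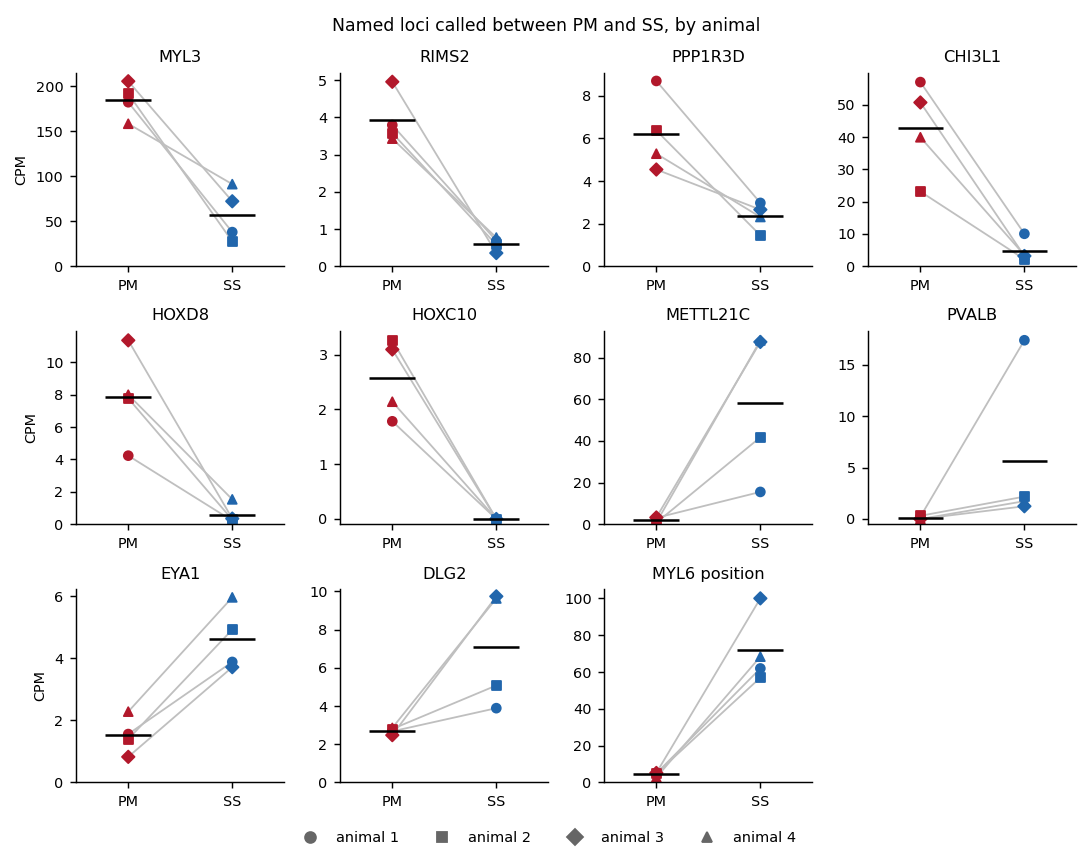
CPM of 11 called loci in PM (red) and SS (blue), with each animal as 1 symbol joined by a grey line and the mean of 4 as a black bar. No panel has overlapping groups; METTL21C and DLG2 rise most in animals 3 and 4, and the PVALB value of 17.4 CPM in SS1 stands apart from the others.

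Many DEG lay side by side. When DEG no more than 100 kb apart are joined, the 113 form 83 runs, of which 11 hold 2 or more DEG and 41 DEG in all. By run, 42 were higher in PM and 41 higher in SS. The direction was uniform within each of the 11 runs of 2 or more DEG. Neighboring loci can be parts of 1 transcription unit that the assembly split, so they are not independent of each other.

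The run with the most DEG was on chromosome 22 (chr22:30151200-30328411), where 11 of 11 tested loci were higher in PM, with log2FC from 1.79 to 3.12. Summed over the run, PM1 to PM4 had 282, 258, 277 and 193 CPM and SS1 to SS4 had 65.4, 32.5, 46.9 and 28.5 CPM, with no overlap. A locus of the run without an Ensembl gene (chr22:30154699-30203274) averaged 128 ± 20.7 CPM in PM and 19.4 ± 8.55 CPM in SS. Its fitted log2FC was 2.80 (95% interval 2.10 to 3.49, SE 0.22, FDR = 1.67e-06). The locus at chr22:30213019-30220010 averaged 17.5 ± 3.38 and 2.17 ± 1.14 CPM (log2FC 3.12, 2.27 to 3.97, SE 0.34, FDR = 9.13e-06). The 1 annotated gene of the run, ENSOARG00000010208, averaged 36.2 ± 9.15 and 10.8 ± 4.52 CPM (log2FC 1.79, 1.32 to 2.26, SE 0.13, FDR = 5.12e-06). SS was the lowest of the 9 muscles for the sum (43.3 CPM), LL the highest (299.6 CPM) and PM next (252 CPM). At least 10 of the 11 calls held whichever animal was left out, and 8 held without the block for animal.

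On chromosome 3 (chr3:138819344-138863155), 9 of 10 tested loci were called, all of them higher in PM. These 9 were without an Ensembl gene and had log2FC of 3.105 to 4.70. Their values varied between animals. The sum was 7.58, 41.3, 26.0 and 9.99 CPM in PM1 to PM4 and 0.686, 1.02, 3.19 and 0.963 CPM in SS1 to SS4. The PM samples thus differed more than 5-fold among themselves, and all lay above the SS samples. The locus at chr3:138823794-138828966 had 1.11, 11.7, 6.397 and 2.86 CPM in PM and 0 to 0.886 CPM in SS (FDR = 3.00e-06). The locus at chr3:138839190-138842956 had 85 counts in PM and 3 in SS, a ratio of 27.5 (counting interval 9.10 to 136). Across muscles the sum was highest in LL (39.0 CPM) and lowest in SS (1.46 CPM) and RF (1.98 CPM). The 9 calls fell to 3 without animal 2, to 5 without animal 3 or animal 4, and to 0 without the block for animal. In that last fit edgeR gave 9 of 9 an unadjusted p under 0.05, as it gave 16.8% of all loci tested in the main fit. The 9 were chosen as DEG on the same samples, so this is not separate support. None of the 9 passed the filter in the fit of the 8 PM and SS samples alone or with at least 10 counts required in every PM or every SS sample, so these settings give no value for them.

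Shorter runs on chromosomes 13 and 12 held 3 DEG each. On chromosome 13 (chr13:55851016-55926015), PPP1R3D and 2 neighbors were higher in PM. The neighbor with an Ensembl gene had 57 counts in PM and 2 in SS, and the one without had 36 counts in PM and none in SS. On chromosome 12 (chr12:73626278-73694079), 3 loci were higher in SS with log2FC from −1.42 to −1.23, and the calls fell to 1, 1, 0 and 0 without animals 1 to 4 in turn. The 3 calls on chromosome 13 fell to 0 without animal 2 or animal 4. In each of the fits with 0 calls edgeR gave all 3 loci of the run an unadjusted p under 0.05. These loci were chosen as DEG on the same samples, so this is not separate support. A further locus higher in SS and without an Ensembl gene, at chr12:42850991-43151955, had 12.4 to 18.1 CPM in SS and 4.54 to 8.47 CPM in PM (log2FC −1.31, FDR = 0.00140) and lost the call without animal 2, 3 or 4, with an FDR of up to 0.0407.

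**Figure D4:**
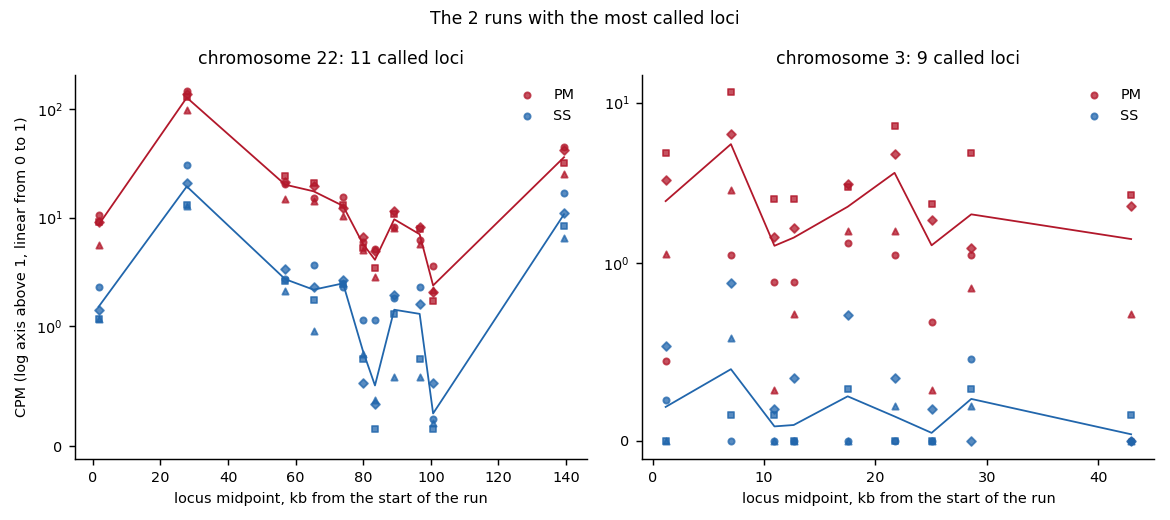
CPM of each called locus (log axis above 1, linear from 0 to 1) by its midpoint in kb from the start of the run, for the 11 loci on chromosome 22 and the 9 on chromosome 3. Points are samples with 1 symbol per animal, red for PM and blue for SS, and lines join the means; on chromosome 22 both muscles follow the same profile at different heights, and on chromosome 3 most SS values are below 1 CPM.

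DEG with many counts were looked at apart. In all, 13 DEG averaged at least 100 CPM in PM or SS, a limit that 186 of the 12461 loci tested reached, and that short transcripts reach less easily than long ones. Of the 13, 9 were higher in PM and 4 higher in SS. None of the 13 had overlapping groups, beside 99 of all 113 DEG and 7.79% of all loci tested that did not overlap. The 13 were chosen as DEG on the same samples, so this is not a result about loci with many counts. MYL3 and the locus at chr22:30154699 are 2 of the 13. ENSOARG00000016476 (chr2:119229086-119270385) had 819, 422, 592 and 565 CPM in SS and 170, 173, 115 and 114 CPM in PM. Its fitted log2FC was −2.07 (95% interval −2.65 to −1.50, SE 0.26, FDR = 1.40e-05), and PM was the lowest of the 9 muscles. An Ensembl gene at chr11:35993775-36011382 had 299 ± 53.3 CPM in SS and 57.6 ± 17.02 CPM in PM (log2FC −2.36, FDR = 0.000454). Another, at chr4:11655348-11693541, had 330 ± 91.6 and 73.1 ± 30.1 CPM (log2FC −2.11, FDR = 0.00123). The fourth, at chr5:60404903-60427609, had 181 ± 32.7 and 82.1 ± 19.1 CPM (log2FC −1.14, FDR = 0.000911).

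Among those higher in PM was a locus joining 2 Ensembl genes at chr24:26211003-26227471. It had 1391, 1726, 2014 and 1302 CPM in PM and 824, 671, 759 and 908 CPM in SS. Every PM sample was above every SS sample, with a log2FC of 1.03 (95% interval 0.62 to 1.44, SE 0.22, FDR = 0.00194). The Ensembl gene at chr11:26050413-26060517 averaged 507 ± 95.7 CPM in PM and 199 ± 44.2 CPM in SS (log2FC 1.37, FDR = 0.000251). Those at chr21:25593909-25643167, chr7:18780797-18808574, chr3:138198426-138280543 and chr12:64355874-64377591 had log2FC of 1.07, 1.19, 1.19 and 1.13. A short locus without an Ensembl gene at chr21:48607766-48608531 averaged 124 ± 48.9 CPM in PM and 33.6 ± 17.4 CPM in SS (log2FC 1.95, FDR = 0.00102). The calls of MYL3, the chromosome 22 locus, ENSOARG00000016476 and the locus at chr3:138198426 held whichever animal was left out. The other 9 each lost the call without at least 1 animal, with an FDR of up to 0.179, and the locus on chromosome 24 lost it without animals 2, 3 and 4 (FDR of up to 0.0582).

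The largest fold among annotated genes without a name was at ENSOARG00000011739 on chromosome 8 (chr8:36569062-36646572). It had 5.57, 5.91, 13.001 and 6.71 CPM in PM and 0.229, 0.145, 0 and 0.193 CPM in SS. The 173 counts in PM against 3 in SS give a ratio of 56.0 with a counting interval of 18.8 to 274 (FDR = 1.77e-07). PM was the highest of the 9 muscles, LL followed with 4.50 CPM, AD had 0.147 CPM, and the other 5 muscles besides SS (SM, ST, GB, GM and RF) had no count. In all, 2 DEG had 0 counts in the 4 samples of the lower muscle and 9 had 1 to 3 counts, and for these the fitted log2FC depends on the prior count.

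The other 7 muscles show on which side each DEG departs. SS had the lowest mean log2 level of the 9 muscles for 51 of the 65 DEG higher in PM, and the highest for 38 of the 48 DEG higher in SS. PM was the highest for 23 of the 65 and the lowest for 25 of the 48. Over all loci tested, SS was lowest for 12.9% and highest for 14.9%, and PM was highest for 8.88% and lowest for 8.76%. For 57 DEG, SS was outside the range of the other 7 means and PM within it, for 16 DEG PM alone was outside, for 32 both were, and for 8 neither was. PM was nearer than SS to the mean of the other 7 for 82 of 113 DEG (72.6%), against 56.3% of all loci tested. These counts describe DEG chosen on the same PM and SS samples, and no test was made of them.

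**Figure D5:**
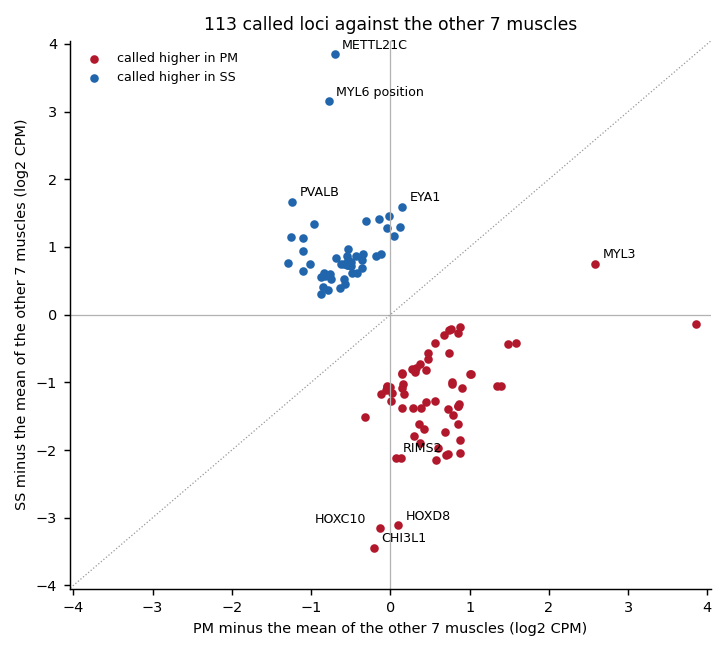
Each of the 113 DEG by its mean log2 CPM in PM (x axis) and in SS (y axis), both minus the mean of the other 7 muscles, with red for higher in PM, blue for higher in SS and a dotted line where both are equal. HOXC10, HOXD8, CHI3L1 and RIMS2 lie near 0 for PM and far below 0 for SS, METTL21C lies far above 0 for SS, and MYL3 lies far to the right.

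Genes of skeletal muscle identity, fast fibers, the respiratory chain and other cell types (fat, vessels, nerve, tendon, blood and immune cells) could not be paired with a locus by name, and of the 478 symbols in the lists only the 30 above were. The content of other cell types in PM and SS, and its part in any difference, was not tested. In a piece of muscle, a larger share of fibers of 1 type and more RNA per fiber cannot be told apart.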

How the data were processed

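RNA was measured by paired-end RNA-Seq in 9 muscles of 4 lambs. The authors mapped reads to Oar_v3.1 with TopHat2 2.0.13, assembled transcripts with Cufflinks 2.2.1 merged with the Ensembl annotation, and deposited raw counts per locus from htseq-count, without normalization. The strand setting is not given in the sources used here. Each file has 31530 entries, and the 394 entries that repeat a locus under another Ensembl gene were dropped, which left 31136 loci. Starts in the files count from 0 and were raised by 1.

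Groups and animals came from the sample titles. Loci were filtered with filterByExpr by muscle (12461 kept), scaled with TMM in edgeR 4.0.16 (R 4.3.3), and fitted over the 36 samples with terms for muscle and for animal. PM minus SS was tested with edgeR's quasi-likelihood test and Benjamini-Hochberg adjustment over all loci (FDR of at most 0.01, absolute log2FC above 1). The study used the likelihood ratio test, tried here as an alternative, as were DESeq2 1.42.0, other scalings and filters, no block, and leaving out each animal. The common biological coefficient of variation was 0.195. SE was taken over the 4 differences of log2 CPM within animals (prior count 2). It is not the error of the fitted log2FC, whose precision is given by the 95% interval from the quasi-likelihood fit. The floor of 3 counts and the counting intervals (95%, exact binomial) cover counting error only, since reads have no molecular identifiers. Depth was 4118178 to 6209124 counts in the 8 samples.

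Samples with the same number are the same animal by the labels, and the deviations of PM and SS from their means correlated at 0.140 to 0.186 within the 4 animals and at −0.265 to 0.0950 between animals. The 12 pairs of samples within PM or SS differed beyond sampling noise (chi-square per degree of freedom 5.73 to 15.0). A simulation with known changes tested the code.

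Named genes were list members paired by coordinates, up to 12 named DEG per direction, ordered by p and alike in sign in 4 animals, and up to 3 DEG per direction without an Ensembl gene. The results of 1 named gene and its neighbors are not reported here, although counts over all loci include them. The DEG of at least 100 CPM, the runs, the locus at chromosome 8 and the HOX neighbors were added after their values were seen. The comparison, the lists and the tests were chosen with earlier results of these data known.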

Additional observations from a re-analysis of the deposited data

Results flagged for a closer look

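In 9 of 114 groups of 4 samples examined, 1 sample stood apart from the other 3 by a gap above Dixon's critical value. Chance alone flags about 1 in 20 groups. In SS, animal 1 was apart for PVALB at 17.4 CPM (others 1.24 to 2.18), for CHI3L1 at 10.1 CPM (others 2.18 to 3.47), for a locus at the coordinates of MYH7B at 57.9 CPM (others 77.6 to 80.4) and for the locus at chr5:60404903-60427609 at 230 CPM (others 160 to 169). Animal 4 was apart for HOXD8 at 1.54 CPM (others 0.229 to 0.354), and animal 3 for a locus at the coordinates of MYL2 and CCDC63 at 205 CPM (others 129 to 140). In PM, animal 1 was apart for MYOM3 at 60.4 CPM (others 19.4 to 25.3), animal 3 for ENSOARG00000011739 at 13.001 CPM (others 5.57 to 6.71) and animal 4 for the MYL6 locus of ENSOARG00000010069 at 2.71 CPM (others 4.82 to 5.16). Of the called loci among these, PVALB lost its call without animal 1 (FDR = 0.0103) and the locus at chr5:60404903-60427609 without animal 3 or 4 (FDR of up to 0.0186), whereas HOXD8, CHI3L1, ENSOARG00000011739 and ENSOARG00000010069 kept theirs.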

How the results depend on the processing

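The 113 DEG (65 higher in PM, 48 higher in SS) became 40 (25 and 15) without the replicate block for animal, all 40 among the 113. They became 281 (102 and 179) with no filter and 213 at an FDR of 0.05 (84 and 129). The likelihood ratio test gave 166 (72 and 94), among them all 113. In a fit of the 8 samples alone, 43 were higher in PM and 58 higher in SS, 74 of them among the 113. Leaving out 1 animal at a time gave 32 to 120 DEG, 25 to 69 higher in PM and 7 to 51 higher in SS, and 7 to 10 of the 11 named DEG. DESeq2 gave 113 (105 shared), RLE size factors 113, library sizes without the 4 most counted loci 111, and at least 10 counts in every PM or SS sample 96. Of the loci described, uncalled ones changed sign without 1 animal: ATP2A2 (−0.0695 to 0.22 over the 4 animals), TNNI1 (−0.012 to 0.36), a MYH7B locus (−0.22 to 0.015) and a MYL2 and CCDC63 locus (−0.29 to 0.072). Among single loci, 790 of the comparisons with another setting kept direction and call, 49 lost the call and 2 gained it. HOXC10 could not be fitted under the stricter filter, and neither PVALB nor the 9 DEG of the chromosome 3 run there or in the 8 samples alone. The median log2FC of all loci stayed within 0.04 of 0 under each setting. Depth limits loci of few counts, such as the HOX neighbors.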
